A study of Mus musculus with 6 samples.

Results

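The respiratory chain genes of mouse leukemic blasts were taken as the protein-coding genes named Nduf (a, b, c, s or v series), Sdha to Sdhd, Uqcr, Cyc1, Cox4 to Cox8, Atp5 or mt- in the GENCODE M21 annotation. The rule uses names alone and found 108 of 53458 genes, 95 encoded in the nucleus and 13 in mitochondrial DNA. Of these, 104 had enough reads to be tested. Ndufa4l2, Cox7b2, Cox8b and Cox8c had fewer than 10 reads in every library and were not tested. The nuclear members comprised 83 entries for subunits of complexes I to V, of which 80 were tested. The other nuclear members were 8 complex I assembly factors, Ndufa4 and Ndufa4l2, the supercomplex factor Cox7a2l, and Atp5s, which is not a subunit.

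The respiratory chain passes electrons from NADH and succinate through complexes I, II, III and IV to oxygen, and complex V uses the resulting proton gradient to make ATP. Complex II is built from nuclear genes only, while the other complexes join nuclear subunits with a few core subunits transcribed and translated inside mitochondria, so both genomes supply one machine. Acute myeloid leukemia cells are known to depend on this pathway, called oxidative phosphorylation.

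RNA sequencing was done on sorted bone marrow blasts of C57/BL6 mice carrying transplanted acute myeloid leukemia. Both groups had the Cebpa-/p30 genotype, in which the short p30 form of the myeloid transcription factor C/EBPα is the only form left. The groups differed in Asxl1, a chromatin regulator gene, which was either wild type (WT, 3 libraries) or carried the G643W change on both alleles (G643W, 3 libraries). Sorting selected CD45.2+ cells that had little Mac1 or Gr1 on their surface and lacked the red cell, B cell and T cell markers Ter119, B220 and CD3. The labels do not say whether the libraries of a genotype come from separate primary leukemias, so the p-values cover only how these libraries vary, which may be partly technical. In bulk RNA, fewer cells of a type and less RNA per cell cannot be told apart.

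Library totals ranged from 61167075 to 101189225 estimated reads. All 9 blast and gate genes were detected in every library, among them Kit (2.12 to 35.9 TPM), Cd34 (5.82 to 94.0 TPM) and Mpo (173 to 2181 TPM). Their summed TPM was 1071, 2676 and 4480 in WT against 5808, 1728 and 2873 in G643W libraries, which overlapped. The 9 include Itgam (46.8 to 321 TPM) and Ly6g (6.14 to 697 TPM), genes of the Mac1 and Gr1 gate. Ly6g is also among the neutrophil markers, so this sum is not one of blast genes alone. The summed erythroid markers were higher in every G643W library, at 20.4, 19.4 and 51.5 TPM against 12.6, 5.80 and 1.86 TPM in WT. B cell markers summed to 9.62 to 17.9 TPM. T and NK cell markers overlapped, at 13.4, 63.9 and 161 TPM in WT against 97.9, 43.7 and 86.9 TPM in G643W libraries. Nkg7 alone, which ranged from 11.1 to 157 TPM, made up most of the sum in every library. Every other marker of that list stayed at or below 3.09 TPM, the highest value of Cd3d, and Cd3e did not exceed 0.219 TPM. Monocyte and macrophage markers, mostly Ly6c2, summed to 2610, 1967 and 3991 TPM in WT against 3457, 2702 and 3439 TPM in G643W libraries, which overlapped. Their mean log2 level, which weighs each gene equally, was 1.49, 0.81 and 0.09 in WT against -0.59, -1.91 and 0.12 in G643W libraries. On that scale, relative to the 6 libraries, WT library 3 lay just below G643W library 3. Neutrophil markers differed widely in spite of the gate: all 14 were detected, with sums of 2762, 13552 and 78784 TPM in WT libraries 1 to 3, against 16214, 185028 and 114487 TPM in G643W libraries 1 to 3. The summed dendritic markers were lower in G643W, at 115, 74.8 and 115 TPM against 857, 642 and 527 TPM in WT. Most of each sum came from H2-Aa, H2-Ab1, H2-Eb1 and Cd74. These genes, Cd209a, Flt3 and Siglech were lower in every G643W library than in every WT library. Xcr1, Clec9a and Itgax overlapped, with Itgax at 2.76, 3.76 and 5.25 TPM in WT against 3.99, 4.12 and 6.03 TPM in G643W libraries. Asxl1 itself had 6.95, 3.68 and 7.15 TPM in WT against 13.7, 20.2 and 15.5 TPM in G643W libraries (two-sided exact permutation p = 0.1, the smallest 3 against 3 allows), which says nothing of the altered base itself.

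No respiratory chain gene passed the threshold. Of 20654 genes tested, 25 were called (0.121%; edgeR's quasi-likelihood test, Benjamini-Hochberg adjusted p under 0.05), 11 higher (0.0533%) and 14 lower (0.0678%) in G643W, and 0 of the 104 members were among them. At an unadjusted p under 0.05 there were 9 members against 1996 of all genes, a background of 9.66%, so the members' share was near the background. DESeq2 called 428 genes (2.07%) and also 0 members. The lowest adjusted p of any member was 0.467.

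The signs of the differences, which are a description and carry no test, separated the 2 genomes. Of the 80 tested nuclear subunits, 66 (82.5%) had a negative log2 difference, G643W minus WT, with a median of -0.24. Over all genes 50.8% were negative with a median of -0.01, and among 5834 other protein-coding genes with at least 30 CPM (read counts scaled to library size, with the TMM factors of edgeR) 51.8% were negative with a median of -0.02. Of the 13 mitochondrially encoded genes, 12 had a positive difference, with a median of 0.54. Single nuclear subunits had a median standard error of 0.22, about the size of their median difference.

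**Figure D1:**
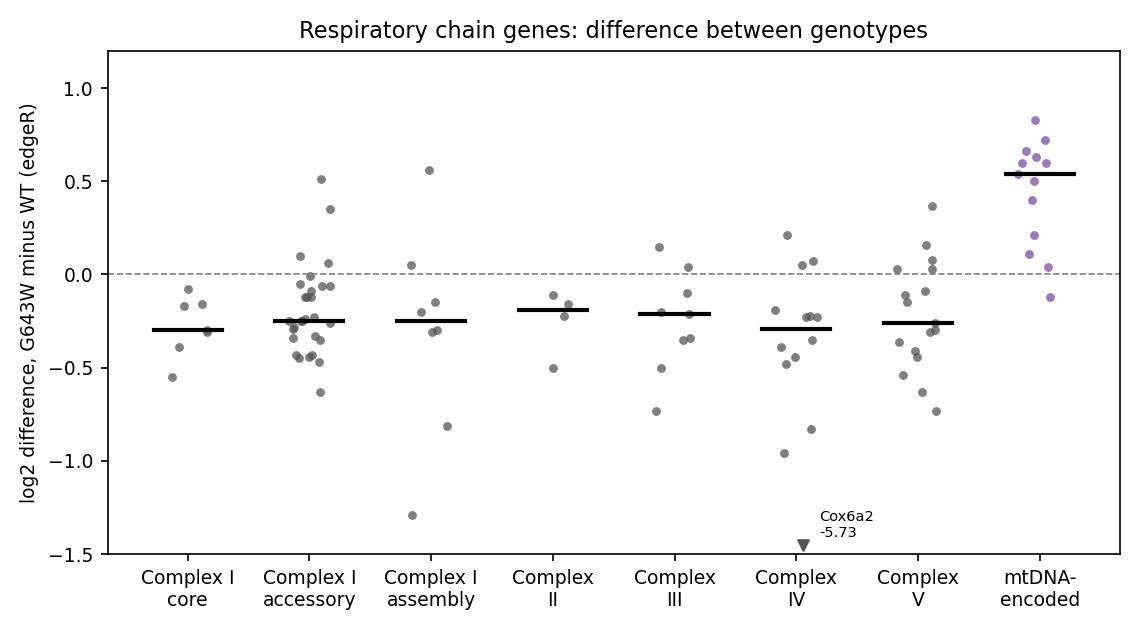
Log2 difference (G643W minus WT, edgeR) of the tested genes of each group: 1 point per gene, black bars for medians, a dashed line at 0. Ndufa4, Cox7a2l and Atp5s, which belong to none of these groups, are not drawn. Medians of the nuclear groups lie between -0.30 and -0.19 and that of the mitochondrially encoded genes at 0.54; Cox6a2, at -5.73, is drawn as a triangle at the lower edge.

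The nuclear levels differed between libraries of the same genotype. Relative to the mean of the 6 libraries, the median log2 CPM of the nuclear subunits was -0.05, 0.35 and 0.05 in WT libraries 1 to 3, against 0.03, -0.16 and -0.25 in G643W libraries 1 to 3. WT library 2 stood highest, and G643W library 1 lay between WT libraries 1 and 3, so the groups overlapped. WT library 2 held the highest value of 57 of the 80 subunits, and G643W libraries 3 and 2 held the lowest value of 31 and 23. Without WT library 2 the median difference was -0.09, with 53 of 80 negative.

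G643W libraries 2 and 3, which had the lowest nuclear levels, had the most neutrophil RNA. The WT libraries did not follow this order, since WT library 1 had the least neutrophil RNA and the lowest nuclear level in WT (-0.05). The mean log2 level of the 14 neutrophil markers was -2.46, -1.08 and 1.10 in WT libraries 1 to 3, against -2.03, 2.55 and 1.92 in G643W libraries 1 to 3. With this mean as a covariate in the fit, the nuclear median was -0.19 with 68 of 80 negative, and the mitochondrial median was 0.58. No member was called in that fit either. Over 6 libraries this fit cannot separate neutrophil content from genotype, so the part of neutrophil content in these differences was not tested. The part of the lower dendritic sum, the higher erythroid sum and the differing monocyte markers was not tested either.

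**Figure D2:**
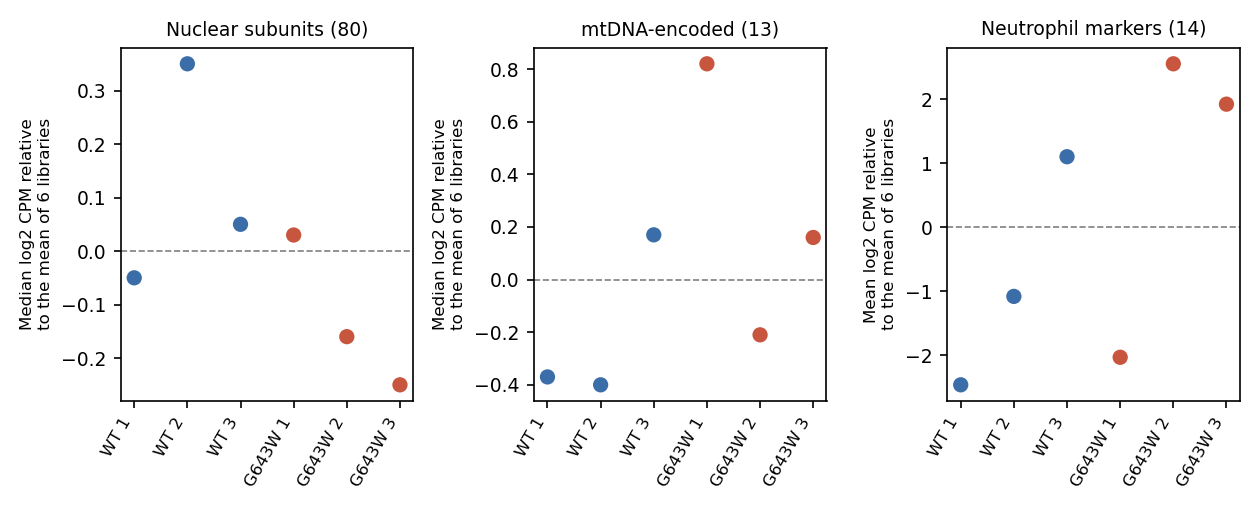
Level of each library relative to the mean of the 6 libraries, on a log2 CPM scale, as the median over 80 nuclear subunits (left), the median over 13 mitochondrially encoded genes (middle) and the mean over 14 neutrophil markers (right); blue is WT and red is G643W. WT library 2 is highest for nuclear subunits (0.35), G643W library 1 for mitochondrially encoded genes (0.82) and G643W library 2 for neutrophil markers (2.55).

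Levels were compared between genes per transcript length, as TPM averaged over the 6 libraries. From low to high, the medians were those of complex I core (34.1 TPM), complex I accessory (70.8), complex II (92.3), complex III (99.7), complex IV (156) and complex V (179), and the complex I assembly factors stood at 13.5 TPM. A few very short transcripts carried part of this order. In Cox7b, a small complex IV subunit with the highest nuclear value (1191 TPM), a transcript of 180 bases made up 92.1% to 93.2% of the TPM from 18.4% to 20.7% of the reads. Transcripts of at most 250 bases likewise gave 81.3% to 87.4% of the TPM of Sdha, 83.9% to 87.0% of Atp5j and 79.0% to 83.5% of Ndufa10. With such transcripts left out, complex II stood at 56.7 TPM, below the complex I accessory subunits (69.8 TPM), and the highest nuclear subunit was Atp5b, the catalytic beta subunit of ATP synthase, at 564 TPM.

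The complex I core holds the iron-sulfur and flavin subunits that carry electrons from NADH to ubiquinone. All 7 nuclear core subunits had a negative difference (median -0.30), and none was called. Without WT library 2 the median was -0.13, with 5 of 7 negative. Ndufs3, a subunit of the arm that reaches into the matrix, had 47.5, 48.2 and 40.3 CPM in WT libraries 1 to 3, against 37.7, 26.3 and 29.1 CPM in G643W libraries 1 to 3. All 3 G643W values lay below all WT values, as in 8.89% of all genes tested (log2 difference -0.55 ± 0.22, SE, edgeR adjusted p = 0.503). The iron-sulfur subunit Ndufs8 differed by -0.39 ± 0.23 (SE, edgeR adjusted p = 0.566), with 57.9 CPM in G643W library 1 against 51.3 CPM in WT library 3, so its groups overlapped.

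Of the 29 accessory subunits of complex I, which surround the core, 25 had a negative difference and 4 a positive one (median -0.25, none called). Their median was -0.06 without WT library 2. Ndufa10, an accessory subunit of the membrane arm, had 70.2, 80.8 and 70.7 CPM in WT against 68.0, 43.0 and 54.0 CPM in G643W libraries. The groups did not overlap, though 68.0 CPM lay close to the WT values (log2 difference -0.43 ± 0.22, SE, edgeR adjusted p = 0.544). Ndufb10 also showed no overlap. Ndufb9, positive at 0.35, ran from 59.4 to 106 CPM in WT and from 95.1 to 112 CPM in G643W libraries.

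Ndufs5, an accessory subunit facing the intermembrane space, was the only nuclear subunit with all G643W libraries above all WT libraries (background 7.05%). It had 29.1, 27.8 and 25.7 CPM in WT against 36.3, 42.4 and 39.3 CPM in G643W libraries (log2 difference 0.51 ± 0.18, SE, edgeR adjusted p = 0.493). This direction depended on how reads were divided between Ndufs5 and a near-identical gene copy. BC002163, a processed pseudogene on chromosome 16 (GRCm38, 42955631 to 42955949, plus strand), matches 317 of 319 bases of the Ndufs5 transcript.

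The 25-base windows around both differing bases are shown because these bases are all that separate the genes over the aligned stretch. Capitals mark the differing base, and positions count from 1 at the 5′ end of the 525-base Ndufs5 transcript (T173C and A197G, Ndufs5 base first).
Ndufs5, position 173: agaacagccctaTaagaacgccgct
BC002163, position 173: agaacagccctaCaagaacgccgct
Ndufs5, position 197: tcggtgccacgcAtttgaaaaagag
BC002163, position 197: tcggtgccacgcGtttgaaaaagag

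BC002163 had 2530, 1176 and 1170 estimated reads in WT libraries 1 to 3, against 124, 7 and 0 in G643W libraries 1 to 3. The copy thus had many reads in every WT library and few in every G643W library, a difference that did not pass (edgeR adjusted p = 0.487, DESeq2 adjusted p = 0.139). Summed over both genes there were 4747, 3141 and 3108 reads in WT and 2606, 3784 and 2918 in G643W libraries, the groups overlapped, and the log2 difference was -0.30 (edgeR adjusted p = 0.614). The share of the sum given to Ndufs5 was 46.7%, 62.5% and 62.3% in WT and 95.2%, 99.8% and 100% in G643W libraries. Within Ndufs5, a 350-base transcript took 45.4, 327 and 289 reads in WT and 822, 1355 and 1103 in G643W libraries, which is 2.73, 19.1 and 17.5 TPM against 59.6, 65.4 and 71.9 TPM. The TPM of the whole gene, at 47.2, 50.4 and 51.8 in WT and 101, 105 and 112 in G643W, stood further apart than its CPM.

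Assembly factors build complex I without staying in it. Of 8 tested, 6 were negative and 2 positive (median -0.25), and none was called. The median was 0.02 without WT library 2, -0.41 without G643W library 1 and -0.13 without G643W library 2 or 3. Ndufaf4 had 13.8, 26.8 and 17.1 CPM in WT against 13.7, 2.40 and 7.53 CPM in G643W libraries. G643W library 1 nearly equalled WT library 1, and the other G643W libraries lay well below (log2 difference -1.29 ± 0.61, SE, edgeR adjusted p = 0.536). Its partner Ndufaf3 differed the other way, with 13.4, 11.5 and 9.88 CPM in WT and between 13.1 and 22.0 CPM in G643W libraries, with overlap (0.56 ± 0.30, SE, edgeR adjusted p = 0.549). Exons of Ndufaf3 overlap those of Impdh2, and reads of the 2 genes cannot be told apart there if strand was not used.
Ndufaf6 differed by -0.81, and Ndufaf2, with the highest TPM of the 8, by -0.31 with a range from -1.15 to 0.07 as single libraries were left out.

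Complex II, succinate dehydrogenase, links the TCA cycle to the chain and has no mitochondrially encoded subunit. All 4 genes had a negative difference (median -0.19, none called), and their median was -0.06 without WT library 2, -0.32 without WT library 1 and -0.10 without WT library 3. Sdhb, the iron-sulfur subunit, had 117, 110 and 83.8 CPM in WT against 70.4, 75.9 and 73.3 CPM in G643W libraries. The highest G643W value lay below the lowest WT value (log2 difference -0.50 ± 0.20, SE, edgeR adjusted p = 0.505). The flavoprotein Sdha and the membrane anchors Sdhc and Sdhd differed by -0.16, -0.11 and -0.22, and their groups overlapped.

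In complex III, which hands electrons from ubiquinol to cytochrome c, 7 of 9 nuclear subunits were negative (median -0.21, none called). Without WT library 2 this was 5 of 9 with a median of -0.08, and without WT library 1 it was 9 of 9 with a median of -0.37. Uqcrfs1, the Rieske iron-sulfur protein, had 86.3, 96.6 and 75.1 CPM in WT against 66.4, 56.2 and 59.3 CPM in G643W libraries, without overlap (-0.50 ± 0.19, SE, edgeR adjusted p = 0.498). Uqcrh, the hinge protein, had 236, 166 and 104 CPM in WT against 104, 99.6 and 102 CPM in G643W libraries. The difference of Uqcrh (-0.73 ± 0.31, SE, edgeR adjusted p = 0.511) rested on WT libraries 1 and 2, and WT library 3 stood level with the G643W libraries. Cyc1, cytochrome c1, was positive at 0.15.

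In complex IV, cytochrome c oxidase, 11 of 14 tested nuclear subunits were negative (median -0.29, none called). Cox5b had 96.6, 110 and 91.3 CPM in WT against 84.7, 68.7 and 59.4 CPM in G643W libraries, without overlap (-0.48 ± 0.21, SE, edgeR adjusted p = 0.516). Cox6b1 and Cox8a also showed no overlap, at -0.23 and -0.39. Cox4i1, the common form of the largest nuclear subunit, overlapped between the groups at -0.35.
Cox6a2, the heart and skeletal muscle form of subunit 6a, had the most extreme difference of all members, -5.73 ± 1.78 (SE, edgeR adjusted p = 0.481). It rested largely on WT library 2: the values were 1.99, 29.4 and 1.12 CPM in WT against 0.541, 0.022 and 0.054 CPM in G643W libraries. Without WT library 2 it was -2.93.

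Complex IV and complex V use paralogs, so shares within each family were taken from TPM. Cox6a2 held 1.37%, 15.1% and 0.678% of the Cox6a TPM in WT against 0.381%, 0.0146% and 0.042% in G643W libraries. Cox6b2, known as the testis form of subunit 6b, held 14.8%, 14.1% and 10.6% in WT and 13.7%, 6.34% and 6.67% in G643W libraries, so G643W library 1 lay within the WT range and the other G643W libraries below it (log2 difference of the CPM -0.83 ± 0.45, SE, edgeR adjusted p = 0.552). Cox4i1, Cox7a2 and Cox8a each held at least 97.6% of their family in every library, and the muscle and lung forms Cox7a1, Cox8b and Cox4i2 stayed at or below 2.43%. Ndufa4, now counted with complex IV, was at -0.30 and Ndufa4l2 at no more than 0.0348% of the pair.

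Atp5g1, Atp5g2 and Atp5g3 encode precursors of the same mature c subunit of the ATP synthase rotor. Atp5g3 held 43.2% to 51.8% of their TPM, Atp5g2 35.1% to 47.7% and Atp5g1 5.12% to 13.2%. Atp5g1 held 10.4%, 13.2% and 10.2% in WT and 9.08%, 5.12% and 7.74% in G643W libraries, and Atp5g2 held 39.3%, 35.1% and 39.5% in WT and 47.7%, 43.1% and 43.8% in G643W libraries. Neither set of shares overlapped between genotypes, while Atp5g3 overlapped. These shares were not tested, and copies limit them: Gm10039 matches 410 of 411 aligned bases of Atp5g1, and Gm10175 matches all 441 bases of the Atp5g2 transcript, which was given only 31.1% to 37.0% of the reads of both.

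**Figure D3:**
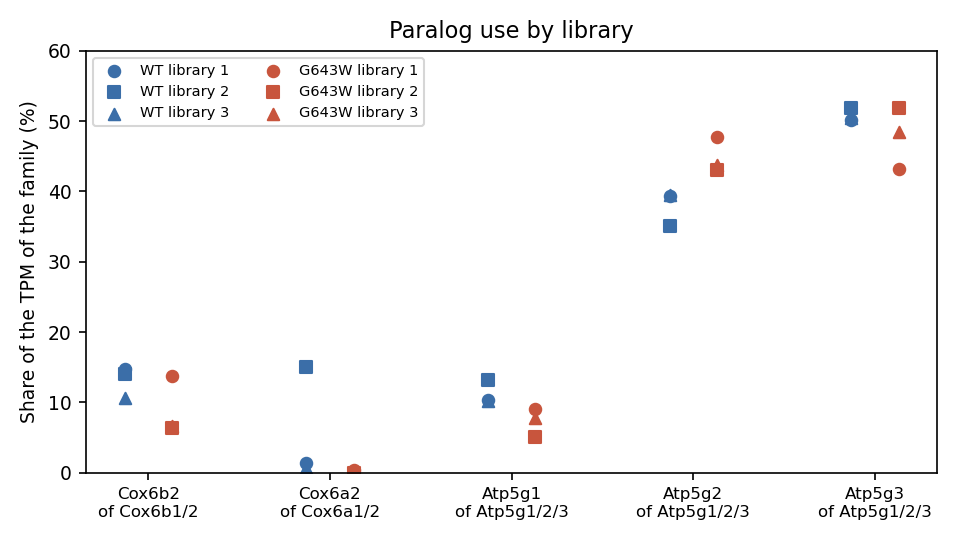
Share of each paralog in the summed TPM of its family (vertical axis, percent) in WT (blue) and G643W (red) libraries, 1 symbol per library number. Cox6a2 reaches 15.1% in WT library 2 only; Atp5g1 lies between 10.2% and 13.2% in WT and between 5.12% and 9.08% in G643W libraries.

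In complex V, ATP synthase, 12 of 17 nuclear entries were negative (median -0.26, none called). The median was -0.15 without WT library 2, -0.16 without WT library 3 and -0.39 without WT library 1. Atp5d (GRCm38 chromosome 10, 80138632 to 80145818, plus strand), the delta subunit of the central stalk, had the lowest p of all members. Its values were 99.2, 103 and 87.5 CPM in WT against 69.2, 62.5 and 55.8 CPM in G643W libraries, so the groups stood clear of each other. The log2 difference was -0.63 ± 0.19 (SE, edgeR adjusted p = 0.467), it lay between -0.63 and -0.54 with any 1 library left out, and DESeq2 gave an adjusted p of 0.151.

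Atp5o, the OSCP subunit that ties the catalytic head to the peripheral stalk, had 105, 140 and 153 CPM in WT against 105, 88.7 and 79.6 CPM in G643W libraries (-0.54 ± 0.23, SE, edgeR adjusted p = 0.511). The groups were just apart, since WT library 1 and G643W library 1 were equal to 3 digits. A second Atp5o entry, whose transcript shares 287 identical bases with Donson, had at most 5.11 CPM. The rotor gene Atp5g1 was at -0.73 ± 0.36 (SE, edgeR adjusted p = 0.537). Atp5b, with the highest level per length among nuclear subunits once short transcripts are set aside, was at -0.26 with overlapping groups. Atp5f1, of the peripheral stalk, was positive at 0.16.

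Cox7a2l, named here after its values were seen, promotes the joining of complexes III and IV into supercomplexes, and C57BL/6 mice are known to carry a shortened form of the protein. It had 309, 335 and 183 CPM in WT against 179, 166 and 153 CPM in G643W libraries. WT libraries 1 and 2 were high, and WT library 3 stood just above G643W library 1 (-0.73 ± 0.27, SE, edgeR adjusted p = 0.498).
Over all nuclear subunits, 13 of 80 had every G643W library below every WT library, against 8.89% of all genes and 9.50% of the other protein-coding genes with at least 30 CPM, and 1 of 80 had the reverse.

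The 13 mitochondrially encoded genes are the membrane core of complexes I, III, IV and V and are cut from long transcripts of the circular genome. Relative to the mean of the 6 libraries, their median log2 CPM was -0.37, -0.40 and 0.17 in WT libraries 1 to 3, against 0.82, -0.21 and 0.16 in G643W libraries 1 to 3. G643W library 1 stood far above the rest, and WT library 3 stood level with G643W library 3. G643W library 1, which also had the lowest read total, was highest for 12 of the 13 genes, the exception being mt-Co3. The summed blast and gate genes were also highest in that library, at 5808 TPM, with Mpo alone at 2181 TPM. By the mean log2 level of the same genes, G643W library 1 stood at 0.28, below WT library 3 (0.86) and G643W library 3 (0.31). Both measures include Itgam and Ly6g, so neither follows blasts alone. Itgam and Ly6g had 61.8 and 10.8 TPM in G643W library 1. They had 199 and 294 TPM in WT library 3, and 318 and 245 TPM in G643W library 3. The part of depth and of cell content in the mitochondrial levels was not tested. The median difference of 0.54 was 0.29 without G643W library 1 and 0.82 without WT library 3.

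Among the 7 complex I genes, mt-Nd4l (0.83), mt-Nd4 (0.66), mt-Nd5 (0.54), mt-Nd1 (0.50) and mt-Nd2 (0.40) had larger differences than mt-Nd6 (0.11) and mt-Nd3 (0.04). mt-Nd4l had 69.8, 83.2 and 142 CPM in WT against 240, 118 and 165 CPM in G643W libraries, with overlap (0.83 ± 0.37, SE, edgeR adjusted p = 0.523). mt-Nd6 is encoded on the other strand, and as annotated it overlaps mt-Nd5 only at the ends of both genes, from position 13552 to 13565. In complex III, mt-Cytb was at 0.63. In complex IV, mt-Co1 had the most reads of all members, at 3594, 3160 and 4649 CPM in WT against 7484, 4376 and 5398 CPM in G643W libraries (0.60 ± 0.35, SE, edgeR adjusted p = 0.568), and mt-Co3 was at 0.21. As counted, mt-Co2 was the only mitochondrially encoded gene without overlap, at 544, 618 and 680 CPM in WT against 1322, 839 and 864 CPM in G643W libraries (0.72 ± 0.28, SE, edgeR adjusted p = 0.503). With its near-identical copies summed, the groups overlapped. In complex V, mt-Atp8 was at 0.60 and mt-Atp6 at -0.12.

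**Figure D4:**
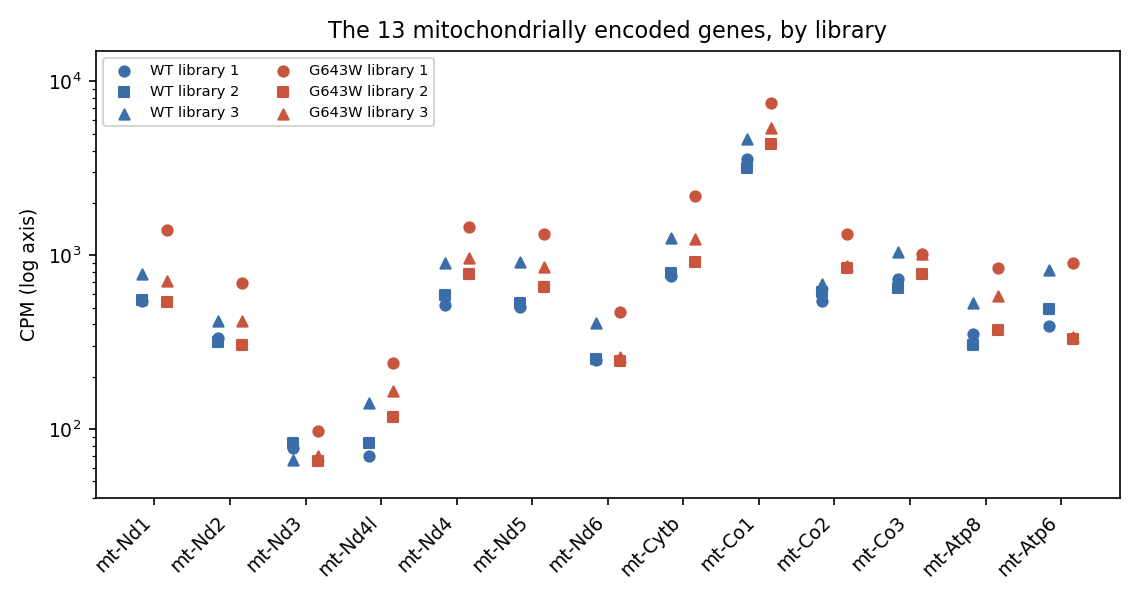
CPM of each mitochondrially encoded gene (log axis) in the 6 libraries, WT in blue and G643W in red, 1 symbol per library number. G643W library 1 is the highest for 12 of the 13 genes, and mt-Co2 is the gene in which all G643W libraries lie above all WT libraries as counted, though not with its copies summed.

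Several of these genes share reads with a stretch of mitochondrial sequence inserted in nuclear chromosome 1, annotated as pseudogenes between 24611535 and 24615565 (GRCm38, minus strand). Gm10925 is identical to mt-Atp6 over 678 of 678 aligned bases, Gm28661 to mt-Co2 over 681 of 681, Gm28437 to mt-Co3 over 783 of 783 and Gm28439 to mt-Nd4 over 876 of 876. Gm28438 differs from mt-Nd3 by 1 base at position 3 (T3C, counted from the 5′ end of mt-Nd3), shown in capitals as the only base in the aligned stretch that separates them.
mt-Nd3, start: atTaacctgtacact
Gm28438, start: atCaacctgtacact

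Over such identical stretches, counting can only divide reads by model. The copies took 38.2%, 32.1% and 32.2% of the reads of mitochondrially encoded genes and copies together in WT, and 29.6% to 32.1% in G643W libraries. mt-Atp6 was given 23.6%, 35.6% and 37.3% of the reads it shares with Gm10925 in WT and 25.8%, 20.8% and 14.5% in G643W libraries. Summed with its copies, mt-Atp6 went from -0.12 to 0.50, mt-Co2 from 0.72 to 0.36 and mt-Nd3 from 0.04 to -0.01, and none was called. The summed values of mt-Co2 and its copies were 1615, 1602 and 2276 CPM in WT against 3162, 1851 and 2024 CPM in G643W libraries, and WT library 3 lay above G643W libraries 2 and 3. mt-Co2 is therefore uncertain in size and in its lack of overlap, and mt-Atp6 and mt-Nd3 are uncertain in direction.

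**Figure D5:**
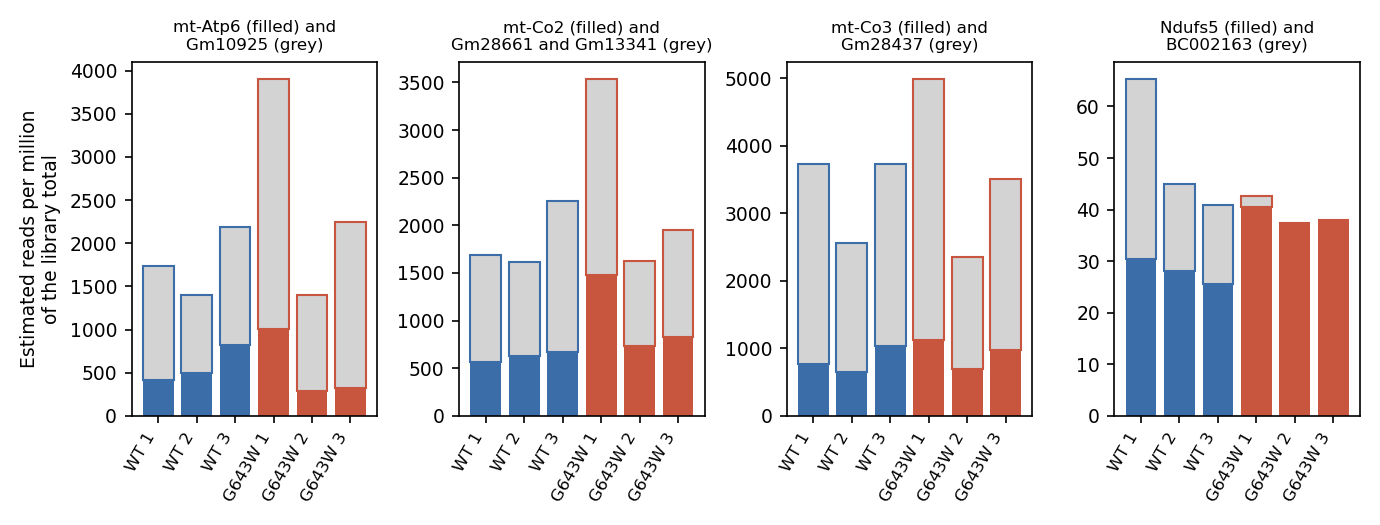
Estimated reads, scaled to the library total, given to a gene (filled) and to its near-identical copies (grey, stacked above) in each library; WT is blue and G643W red. Before this scaling, BC002163 holds 2530, 1176 and 1170 estimated reads in WT and 124, 7 and 0 in G643W libraries. Copies hold most of the reads that mt-Atp6, mt-Co2 and mt-Co3 share with them in all 6 libraries.

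The balance between the 2 genomes was read from summed TPM. The 13 mitochondrially encoded genes summed to 23042, 18957 and 34822 TPM in WT against 58795, 23891 and 38918 TPM in G643W libraries. The nuclear subunits summed to 11001, 13183 and 12186 TPM in WT against 13191, 9840 and 10438 TPM in G643W libraries. The ratio was 2.09, 1.44 and 2.86 in WT and 4.46, 2.43 and 3.73 in G643W libraries, overlapping because WT library 3 lay above G643W library 2. On the log2 scale the difference of the mean ratios was 0.74, against a pooled standard deviation of 0.47 between libraries of a genotype.

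Most of the mitochondrial TPM came from 1 short gene. mt-Atp8, of 204 bases, gave 66.7% to 72.7% of the sum, although it shares its transcript with mt-Atp6, which was listed at 420 to 1289 TPM against 12653 to 42265 TPM for mt-Atp8. Without mt-Atp8 the ratio was 0.626, 0.478 and 0.845 in WT and 1.25, 0.787 and 1.02 in G643W libraries. The order of the libraries kept the same overlap, with WT library 3 above G643W library 2. In reads, the 13 genes made up 0.907%, 0.851% and 1.25% of the WT and 2.17%, 0.908% and 1.24% of the G643W libraries.

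Genes around the chain were read from 11 lists, and edgeR and DESeq2 each called 0 of their 130 tested genes. Over all genes tested, edgeR called 0.121% and DESeq2 2.07%. Of the 130 genes, 4 had an unadjusted edgeR p under 0.05, a smaller share than the 9.66% of all genes. For assembly factors the median log2 difference was -0.63 for complex I (8 of 9 negative), -0.58 for complex II (4 of 4), -0.08 for complex III (3 of 6), -0.27 for complex IV (17 of 22) and -0.26 for complex V (3 of 3). Dmac2, a complex I assembly factor, had 38.2, 30.2 and 22.5 CPM in WT against 22.2, 12.7 and 13.5 CPM in G643W libraries, just without overlap (-0.91 ± 0.32, SE, edgeR adjusted p = 0.493). Sdhaf1, which helps load iron-sulfur clusters into Sdhb, was at -1.04, Uqcc3 at -0.46, Pet100 at 0.53 and Tmem70, of ATP synthase assembly, at -0.54.

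Electron carriers had a median of -0.21 (13 of 19 negative), with cytochrome c itself (Cycs) at -0.60, from 24.5, 41.7 and 34.7 CPM in WT to 25.9, 19.6 and 21.2 CPM in G643W libraries. mtDNA transcription and maintenance genes had a median of -0.22 (11 of 15 negative), among them Ssbp1, the mitochondrial single-stranded DNA binding protein, at -0.64. Mitochondrial RNA processing and stability genes had a median of -0.39 (14 of 16 negative), with the nuclease Pnpt1 at -0.66. The medians of these nuclear lists were thus negative while that of the mitochondrially encoded genes was positive, and no list was tested against the other genes.

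The regulators of respiratory genes had a median of -0.13 (7 of 10 tested negative). Gabpb1, a partner of the ETS factor Gabpa, had 23.2, 32.6 and 28.7 CPM in WT against 37.7, 46.6 and 42.8 CPM in G643W libraries, without overlap (0.59 ± 0.21, SE, edgeR adjusted p = 0.493). The TCA cycle genes had a median of -0.20 (13 of 18 negative), with fumarase (Fh1) at -0.74. Carriers and outer membrane pores had a median of -0.21 (7 of 9 tested negative). In that list Slc25a4, an ADP/ATP carrier, had 97.1, 128 and 71.5 CPM in WT against 61.8, 10.4 and 27.7 CPM in G643W libraries (-1.57 ± 0.60, SE, edgeR adjusted p = 0.500). Its G643W values followed the neutrophil order in reverse, with the lowest level in G643W library 2. In WT this order held only in part. WT library 3, with the most neutrophil RNA in WT, was lowest, but WT library 2 (128 CPM) stood above WT library 1 (97.1 CPM). G643W library 1 (61.8 CPM) lay below WT library 3 (71.5 CPM), which had more neutrophil RNA. The part of neutrophil content in the levels of Slc25a4 was not tested.

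Promoters of the nuclear members were searched for motifs of 3 factors known for respiratory genes, on both strands: GCGCA, any base, then GCGC (NRF1), CCGGAAGT (ETS family, which includes Gabpa) and AAGATGGC (YY1). RefSeq sequences (GRCm38.p6) from 250 bases before to 50 after the start were matched for 76 of 94 nuclear symbols, giving 81 promoters. NRF1 letters were in 24.7% of them against 6.38% of all protein-coding promoters of that length, YY1 letters in 13.6% against 3.05% and ETS letters in 6.17% against 5.15%. At least 1 of the 3 was in 42.0% against 13.5%. By complex this share ran from 16.7% in complex IV (2 of 12 promoters), near that background, to 66.7% in complex II (2 of 3). A motif was held by 44.1% of the promoters of members with a negative difference and 36.4% of those with a positive one (4 of 11), a difference that was not tested. A match is a description of letters and not of binding.

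Per complex, the tested member with the lowest p among those with a motif wholly before the start was taken. Promoter sequences of 3 of these members are shown. Ndufs5 has a single NRF1 match, Uqcrh an ETS match close to the start, and Cox6a1, the common form of subunit 6a, 2 NRF1 matches. YY1 matches are not among those shown. Each is the 250 bases before the start from RefSeq (GRCm38.p6, minus strand), with the motif in capitals.
Ndufs5, chr4:123718187-123718436: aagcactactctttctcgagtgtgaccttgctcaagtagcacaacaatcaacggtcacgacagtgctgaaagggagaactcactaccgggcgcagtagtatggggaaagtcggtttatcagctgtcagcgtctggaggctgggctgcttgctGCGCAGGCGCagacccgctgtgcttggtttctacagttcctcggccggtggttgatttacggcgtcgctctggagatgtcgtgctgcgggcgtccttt
Uqcrh, chr4:116075071-116075320: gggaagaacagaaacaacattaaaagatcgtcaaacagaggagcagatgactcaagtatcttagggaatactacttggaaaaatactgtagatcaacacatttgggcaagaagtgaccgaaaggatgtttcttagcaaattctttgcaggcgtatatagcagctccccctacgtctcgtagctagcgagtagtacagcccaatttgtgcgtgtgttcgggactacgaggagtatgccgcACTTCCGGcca
Cox6a1, chr5:115348959-115349208: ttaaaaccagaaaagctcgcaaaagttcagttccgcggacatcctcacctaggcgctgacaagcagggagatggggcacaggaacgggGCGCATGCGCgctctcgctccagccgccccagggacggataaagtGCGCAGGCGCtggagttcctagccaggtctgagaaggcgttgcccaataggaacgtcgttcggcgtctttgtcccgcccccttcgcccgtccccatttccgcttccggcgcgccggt

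The first motif base lies 98 bases before the start in Ndufs5 and 11 in Uqcrh, where the ETS letters read on the opposite strand. In Cox6a1 the matches begin 162 and 117 bases before the start. The levels of Uqcrh and Ndufs5 are given above, and Cox6a1 had 97.2, 109 and 107 CPM in WT against 93.4, 98.6 and 82.0 CPM in G643W libraries, overlapping at -0.19.

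Other limits to the counts were shared exons. Exons of 43 members overlap those of another gene, 32 of them on the opposite strand, among them Atp5j with Gabpa, Cox4i1 with Emc8 and Ndufs3 with Kbtbd4. Near-identical copies were found for 25 members and not for the other 83. Summing copies moved the nuclear median from -0.24 to -0.25 and the mitochondrial median from 0.54 to 0.50.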

How the data were processed

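RNA sequencing libraries from 6 samples (3 WT, 3 G643W) were analysed. The submitters' processing notes name bcl2fastq, Salmon 0.12.0 and the builds mm10 and GRCm38.p6. Not given in the sources used here were Salmon's options, its index and its use of strand. Each deposited table holds, per the file headers, an estimated count and a TPM for every transcript, and TPM is scaled to effective transcript length and library size. Salmon divides reads that match several transcripts by a model, which bears on every gene with a copy.

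Of 136288 transcripts, 136176 matched GENCODE M21 and were summed over 53458 genes. Unmatched transcripts (112) had up to 0.0365% of the reads. The sums of estimated counts were rounded, genes were filtered with filterByExpr (minimum count of 10), and edgeR 4.0.16 in R 4.3.3 was run with TMM scaling (glmQLFit, glmQLFTest, genotype only, two-sided, Benjamini-Hochberg over 20654 genes, threshold 0.05). CPM are TMM-scaled, and log2 levels use a prior count of 2. The biological coefficient of variation was 52.8%. The procedure was tested on simulated data. Copies were sought with BLAST+ 2.17.0, with a minimum identity of 95% and a minimum coverage of 50%. No pair of libraries of a genotype differed by less than sampling noise.

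Members and lists were chosen with earlier results of these data known. Genes were named by rule: Asxl1, the mitochondrially encoded genes, per complex the 2 lowest p and the highest TPM, the 3 largest differences per direction at 10 TPM or more, paralog families, members with most copies, and the lowest p of each of 11 lists. Cox7a2l, Ndufb10, Sdhc, Cyc1, Atp5b and Atp5f1 were named outside the rule, after their values were seen, and are not among the 60 named genes whose direction was followed over the alternatives. Some genes the rule names are not reported here. Alternatives, also with DESeq2 1.42.0 and limma 3.58.1, are given at the end.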

Additional observations from a re-analysis of the deposited data

How the results depend on the processing

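Members called were 0 in all 18 alternatives, and the signs of the nuclear and mitochondrial medians held in each. The nuclear median ranged from -0.35 to -0.09 and the mitochondrial one from 0.29 to 0.82. The 66 negative nuclear subunits became 55 of 80 with limma on log2(TPM + 1) or log2(TPM + 0.1) and 53 without WT library 2. The log2 ratio difference of 0.74 became 0.73 with reads, 0.65 with copies summed, 0.66 without mt-Atp8 (added after seeing the data) and 0.49 to 0.99 with 1 library left out.

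Calls over all genes (25, of which 11 higher and 14 lower) moved with the setting: 16 with 8 lower without scaling, 104 (37 higher, 67 lower) without a filter, 5 (4 and 1) with TPM scaled to library totals, 428 (164 and 264) with DESeq2, 43 (19 and 24) with limma on log2(TPM + 0.1), 2 (1 and 1) among protein-coding genes alone, 7 lower with limma on log2(TPM + 1) and 8 lower with the neutrophil covariate. With 1 library left out they ranged from 0 to 16 (0 to 13 higher, 0 to 7 lower), with 0 without WT library 2, and the complex I accessory median from -0.31 to -0.06. With the replicate number as a block 0 genes were called (0 higher, 0 lower), with 1772 at an unadjusted p under 0.05; deviations of same-numbered libraries correlated at 0.112, -0.165 and 0.176, so the numbers were not taken to pair libraries.

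Of 60 named genes, 47 kept 1 direction throughout. Atp5h became 0.01 in both limma fits and among protein-coding genes alone, Cox4i2 -0.10 with the neutrophil covariate, and, with copies summed, Ndufs5 -0.30, mt-Atp6 0.50 and mt-Nd3 -0.01. With 1 library left out, ranges crossing 0 were -0.06 to 0.24 for Atp5g2, -0.20 to 0.12 for Atp5h, -0.36 to 0.14 for Atp5j, -0.69 to 2.35 for Cox4i2, -0.06 to 0.22 for Cox7a2, -0.34 to 0.03 for Cox7b, -0.49 to 0.01 for Ndufa4, -1.15 to 0.07 for Ndufaf2, -0.26 to 0.10 for Uqcrb, -0.69 to 0.28 for mt-Atp6, -0.07 to 0.15 for mt-Nd3 and -0.17 to 0.43 for mt-Nd6. The cause of these moves was not tested. The spread between libraries limits these results, with a biological coefficient of variation of 52.8%, and at that spread a count of 0 does not show equal levels.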
